A study of Mus musculus with 44 samples.

Results

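The Prame-like genes were followed in single two-cell mouse embryos with and without *Dppa2* and *Dppa4*. They were taken as every gene of the deposited RNA-seq table whose name starts with Prame, leaving out names that end in -ps. This gave 14 of the 35269 genes in the table, of which 13 are protein-coding and 1, *Pramef12os*, is an antisense transcript. No pseudogene name had to be removed (0 rows).

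The study asked whether maternal *Dppa2* and *Dppa4*, a pair of small DNA-binding proteins that act in early embryos and pluripotent cells, are needed when the embryonic genome is activated. Individual embryos from natural matings, with the zona pellucida removed, were each sequenced as 1 library. The 14 WT embryos (Dppa2/4+/+) came from the ctrl-x-WT cross (10 and 4 embryos in matings 1 and 2), and the 15 HET1 embryos (Dppa2/4+/-) from cKO females and WT males (7 and 8). The cross of cKO females with Dppa2/4+/- males gave 5 HET2 embryos (Dppa2/4+/-; 4 and 1) and 10 HOM embryos (Dppa2/4-/-; 3 and 7), so 6 litters were sampled in all. In cKO females the floxed stretch from exon 2 of *Dppa4* to exon 7 of *Dppa2* is deleted by Zp3-Cre, which acts in growing oocytes, on a C57Bl/6 background. HET1, HET2 and HOM embryos therefore all lack the maternal supply, and HET2 and HOM differ in the allele from the father. HET2 and HOM were told apart by the authors from the *Dppa2* and *Dppa4* transcripts themselves. The reads of both genes follow from that choice, with at most 7 *Dppa2* reads in any HOM embryo. Only HET2 and HOM embryos share litters, so in each comparison with WT the group and the litter cannot be told apart. The labels name a mating for each litter and do not say which embryos share a sequencing batch, and the p-values measure the spread between embryos.

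Prame-like proteins are built of leucine-rich repeats, and mammalian genomes carry many copies of their genes, with the mouse especially rich in them. PRAME itself is known from human tumours and testis, where it can repress retinoic acid receptor signalling together with EZH2 and can act as a substrate receptor of a CUL2 ubiquitin ligase. *Pramel7* is known to direct UHRF1, a factor that maintains DNA methylation, to degradation in the inner cell mass, and *Pramel6* and *Pramel7* lie downstream of LIF and STAT3 in embryonic stem cells. *Pramef12* is known for its part in sperm production.

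The members lie at 3 places in the genome (GRCm38, coordinates of the deposited table, the same as in the GENCODE annotation for all 14 genes). On chromosome 2, *Pramel7* (chr2:87489087-87497093, reverse strand) and *Pramel6* (chr2:87506565-87510872, forward strand) are neighbours, separated by 9471 bp. On chromosome 4, 9 protein-coding members span 1014037 bp, in the order *Pramel1*, *Pramef8*, *Pramef6*, *Pramef25*, *Pramef17*, *Pramel4*, *Pramel5*, *Pramef20* and *Pramef12*, from 143394428 to 144408464. *Pramef12os* (chr4:144404868-144406301) lies in an intron of *Pramef12* on the other strand, and the exons of the pair do not overlap. Reads were counted without regard to strand, so reads of unspliced *Pramef12* there could count for it. *Pramel3* and *Prame* are on the X chromosome.

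The copies are alike enough to limit what the reads can tell. In the transcripts of *Pramel4*, 82.2% of all 75-base stretches (the read length) also occur in the transcripts of another gene, most often *Gm13102*. The share was 70.4% in *Pramel3*, 64.4% in *Pramef17*, 43.1% in *Pramef25*, 25.4% in *Pramef6* and 12.4% in *Pramel5*, and 0.2% in *Prame*. It was 0% in *Pramel7*, *Pramel6*, *Pramef12*, *Pramef8*, *Pramel1*, *Pramef20* and *Pramef12os*. Reads under a MAPQ of 20 had been discarded by the authors, so the level of a member with a high share is uncertain, whereas *Pramel7*, *Pramel6* and *Pramef8* share no such stretch, nor does *Pramef12*.

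Likeness reached beyond the transcripts in a few members. RefSeq (GRCm38.p6) gave the 250 bases before the start of 12 members, the exceptions being *Pramef8* and *Pramef12os*. Of the 66 pairs of these windows, 64 were between 44.8% and 58.0% identical over their alignment (median 50.4%). The other 2 pairs were *Pramel4* with *Pramel5* (81.5%) and *Pramel7* on chromosome 2 with *Pramef17* on chromosome 4 (78.7%). They are shown here because their upstream sequences are the most alike. They also hold *Pramel7* and *Pramel4*, genes that the comparison of HET1 with WT turns on. Capitals mark the longest stretch shared letter for letter within a pair, 111 bases in the first and 23 bases in the second, which shares another stretch of the same length nearer the start site.
Pramel4 (chr4:144058875-144059124, forward strand): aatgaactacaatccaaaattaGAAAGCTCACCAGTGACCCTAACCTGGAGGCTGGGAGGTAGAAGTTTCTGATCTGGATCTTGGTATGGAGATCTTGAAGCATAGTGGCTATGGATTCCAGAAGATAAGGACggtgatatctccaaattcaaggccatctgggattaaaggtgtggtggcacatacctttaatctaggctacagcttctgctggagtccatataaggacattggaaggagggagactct
Pramel5 (chr4:144280467-144280716, reverse strand): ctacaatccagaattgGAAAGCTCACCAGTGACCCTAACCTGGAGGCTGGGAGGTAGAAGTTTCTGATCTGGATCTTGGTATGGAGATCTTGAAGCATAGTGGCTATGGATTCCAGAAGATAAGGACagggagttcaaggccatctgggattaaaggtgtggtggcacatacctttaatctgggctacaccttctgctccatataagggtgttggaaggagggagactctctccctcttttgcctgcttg
Pramel7 (chr2:87492419-87492668, reverse strand): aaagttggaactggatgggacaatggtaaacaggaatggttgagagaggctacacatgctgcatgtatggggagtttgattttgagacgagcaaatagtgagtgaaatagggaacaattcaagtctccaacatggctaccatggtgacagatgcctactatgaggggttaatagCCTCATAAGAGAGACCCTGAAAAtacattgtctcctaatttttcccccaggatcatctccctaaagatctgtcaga
Pramef17 (chr4:143994370-143994619, reverse strand): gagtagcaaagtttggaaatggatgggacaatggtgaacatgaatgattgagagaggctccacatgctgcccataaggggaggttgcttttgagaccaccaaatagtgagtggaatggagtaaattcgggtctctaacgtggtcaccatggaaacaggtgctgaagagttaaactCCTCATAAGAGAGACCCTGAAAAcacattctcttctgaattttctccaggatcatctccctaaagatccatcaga

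The RefSeq start of *Pramel7* lies 4675 bases inside the gene as the deposited table draws it, and 26 bases of its window fall in an exon of that model. The window of *Pramel5* overlaps the first exon of the deposited model by 22 bases. On both strands of the 12 windows, TATAAA was found in 0, against 12.4% of all 32851 windows of this length. CCAAT was found in 6 of 12 (33.8% of all windows). GGATTA was found in 4 of 12, in *Pramel4*, *Pramel5*, *Pramef6* and *Prame* (6.3% of all windows). These counts describe letters, and no binding was measured.

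Levels are given as RPM (the reads of a gene scaled to the mapped total of its embryo) or as log2 RPM. A gene without reads stood at a value that depended on the depth of its embryo, so for averages and tests every value was raised to a common floor of 1.86 (3.63 RPM), and differences of genes near it are understated. Total reads ranged from 247667 to 3163026 per embryo, with medians of 1770010 in WT, 528166 in HET1, 1108889 in HET2 and 803369 in HOM, so the shallowest group was HET1. About 3 reads are needed to tell a gene from 0, a limit for counting error only, because PCR copies of a molecule are counted separately. In whole embryos, fewer transcribing cells and less RNA per cell cannot be told apart. All 12 two-cell marker genes had reads, whereas sperm and blastocyst markers were too low to be tested (0 of 5 in each list) with 3 of 5 sperm markers without a read in any embryo. Of 10 granulosa and cumulus markers 2 had no read.

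Transcripts of most members were present, at very unequal levels, and those from the oocyte cannot be told from new ones. Of the 14, 9 were well detected (at least 3 reads in at least 22 embryos), and 3 had reads in all 44 embryos: *Pramel7*, *Pramef12* and *Pramel6*. Per kb of exon, the median level in WT embryos was 89.6 RPM for *Pramel7*, 34.0 RPM for *Pramel6* and 30.0 RPM for *Pramef12*. A second tier followed with *Pramel5* at 8.30, *Pramef8* at 6.06, *Pramel4* at 5.46 and *Pramef25* at 5.30 RPM per kb. The last of the WT order with a median above 1 were *Pramel1* (4.01) and *Pramef17* (3.32). *Pramel7* did not overlap *Pramel6* over the WT embryos (122 to 403 against 39.2 to 99.0 RPM, in genes of similar length), whereas *Pramel6* and *Pramef12* (18.3 to 148 RPM) did, as did the neighbours of the second tier. Together the 14 genes took a median of 533 RPM in WT, 339 in HET1, 399 in HET2 and 467 in HOM.

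**Figure D1:**
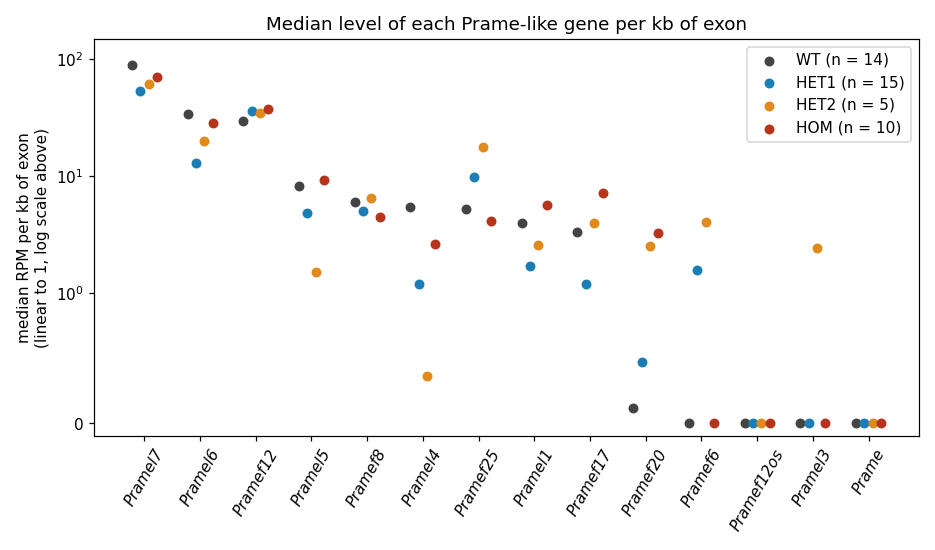
Median level of each of the 14 Prame-like genes in RPM per kb of exon (vertical axis, linear up to 1 and logarithmic above) for WT, HET1, HET2 and HOM embryos (1 point per group). *Pramel7*, *Pramel6* and *Pramef12* stood above all others in every group, from 13.0 to 89.6 RPM per kb, and the 4 genes at the right had a median of 0 in WT and HOM.

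The remaining 5 members were at the edge of detection. *Pramel3*, a member on the X chromosome, had reads in 15 of 44 embryos but as many as 130 in a single HOM embryo. *Pramef20* had reads in 27 embryos and never more than 20, and *Pramef6* in 20 embryos and never more than 18. *Prame*, the founding member, had reads in 3 of 44 embryos (at most 7 reads), and *Pramef12os* in 3 (at most 3 reads). Neither rose above the floor in any embryo, so the tests cover the other 12 members among 13338 genes (those above the floor in at least 5 embryos).

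Between HET1 and WT embryos, 3 of the 12 members tested were lower and 0 higher. They were *Pramel7*, *Pramel6* and *Pramel4*, so the highest of the 14 members was among them together with its neighbour on chromosome 2. Of all genes tested, 2.83% were called lower and 3.67% higher in this comparison (limma on floored log2 RPM, Benjamini-Hochberg adjusted p under 0.05 here and throughout). When each embryo was centred on its median, 405 genes were called higher and 735 lower in place of 490 and 378, with the same 3 members lower. The median difference was -0.53 over the 12 members and 0.10 over all genes on the log2 scale.

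*Pramel7* ran from 122 to 403 RPM in WT (median 191) and from 47.3 to 200 RPM in HET1 (median 114). The mean log2 level was 7.73 ± 0.51 (SD, n = 14) in WT and 6.60 ± 0.70 (SD, n = 15) in HET1, a difference of -1.13 (SE 0.23, 2.19-fold lower, limma adjusted p = 0.0021). The groups overlapped, with 6 of the 7 HET1 embryos of mating 1 inside the WT range, whereas of the 8 of mating 2 only k was inside it. *Pramel6* ran from 39.2 to 99.0 RPM in WT (median 70.8) and from 8.32 to 86.5 RPM in HET1 (median 27.1). Its difference was -1.38 (SE 0.30, 2.60-fold lower, limma adjusted p = 0.0033). Both genes were read in every embryo, with at least 15 reads for *Pramel7* and at least 3 for *Pramel6*. *Pramel4* ran from 1.38 to 31.0 RPM in WT (median 13.6) and from 0 to 17.0 RPM in HET1 (median 2.99), with a difference of -1.14 (SE 0.35, limma adjusted p = 0.037), and is the copy whose reads are hardest to place.

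Markers moved in this comparison too, as 3 of 12 two-cell and 2 of 9 oocyte markers were higher in HET1 by limma (1 of each list by limma voom), and summed oocyte markers were at a median of 959 RPM in WT (299 to 3007) and 1422 RPM in HET1 (521 to 2886). Their part in the result was not tested.

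All 3 calls depended on how litters were treated. With litter as a random effect 0 members were called, although the differences stayed at -1.07, -1.34 and -1.13 in the order above (adjusted p = 0.32, 0.33 and 0.62). Without the HET1 embryos of mating 2 the differences were -0.53, -0.78 and -0.71 (adjusted p = 0.24, 0.20 and 0.41), and without those of mating 1 they were -1.66, -1.90 and -1.52 (adjusted p = 7.2e-06, 7.3e-06 and 0.0055). Without the WT litter of mating 1 no member was called (0), at differences of -0.90, -1.27 and -1.13.

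The other 9 members did not pass in HET1. *Pramef12* was at 77.1 RPM in WT and 92.6 RPM in HET1 (medians), a difference of 0.27 with a 95% interval from -0.26 to 0.80. *Pramef8* differed by 0.40 (-0.51 to 1.30) and *Pramef25* by 0.10 (-0.99 to 1.19). *Pramef6* had reads in 3 of 14 WT embryos and in 9 of 15 HET1 embryos, although the HET1 libraries were shallower. Its reads were in 2 of 7 HET1 embryos of mating 1 and in 7 of 8 of mating 2. Its difference of 0.91 (SE 0.31) missed the threshold (limma adjusted p = 0.064). It passed by limma voom on the recovered reads (2.84, adjusted p = 0.0091), on deposited values without the floor (2.47, adjusted p = 0.0048) and as log2(RPM + 4) (1.00, adjusted p = 0.04). Without the floor, a gene without reads stands lower in a deeper embryo, so the deeper WT libraries raise that difference. *Pramef6* missed the threshold when genes were kept by mean level (0.91, limma adjusted p = 0.095). No member was called higher with each embryo centred on its median, with litter as a random effect or with litter means as the replicates. The intervals of *Pramel1*, *Pramel5*, *Pramef17*, *Pramef20* and *Pramel3* all included 0, with differences from -0.89 to 0.13.

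These lower members varied widely inside each group. *Pramel5* ran from 1.26 to 327 RPM in WT (median 19.1), from 0 to 55.5 RPM in HET1 (median 11.1) and from 1.22 to 45.3 RPM in HOM (median 21.3), and stood at 3.28, 21.6, 17.2, 1.81 and 3.48 RPM in HET2 a to e. *Pramel1* ran from 0 to 54.8 RPM in WT, from 0 to 44.4 RPM in HET1 and from 5.58 to 34.1 RPM in HOM, with 7.96, 16.2, 7.16, 6.35 and 5.22 RPM in HET2. All groups overlapped in both genes. *Pramef17* reached 26.4 RPM in WT, 15.2 in HET1, 23.6 in HET2 and 34.1 in HOM, with medians of 5.82, 2.12, 7.02 and 12.7 RPM. *Pramef20* reached 6.89, 12.1, 10.8 and 24.4 RPM in the same order, with reads in 7 of 14, 8 of 15, 5 of 5 and 7 of 10 embryos. *Pramel3* was absent from the reads of most embryos, being found in 6 of 14 WT, 3 of 15 HET1, 3 of 5 HET2 and 3 of 10 HOM embryos. *Pramef6* was found in 4 of 5 HET2 and 4 of 10 HOM embryos, and at no more than 6.34 RPM in WT against 48.5 RPM in HET1.

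A ratio of 2 genes within an embryo does not depend on how embryos are scaled to each other. The log2 ratio of *Pramel7* to *Pramef12* reads averaged 1.58 ± 1.12 (SD, n = 14) in WT and 0.17 ± 1.07 (n = 15) in HET1, with 0.61 ± 1.23 in HET2 (n = 5) and 0.75 ± 0.62 in HOM (n = 10). The ratio of *Pramel6* to *Pramef12* averaged -0.03 ± 1.00 in WT, -1.68 ± 1.13 in HET1, -1.39 ± 1.53 in HET2 and -0.32 ± 0.74 in HOM. By litter, the first ratio averaged 1.89 and 0.79 in WT matings 1 and 2, and 0.88 and -0.44 in HET1 matings 1 and 2. The second averaged 0.24 and -0.71 in the WT litters, and -0.98 and -2.29 in the HET1 litters. WT mating 2 and HET1 mating 1 were thus the closest of these litters between the groups. These ratios are a description of genes chosen for their differences and were not tested.

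**Figure D2:**
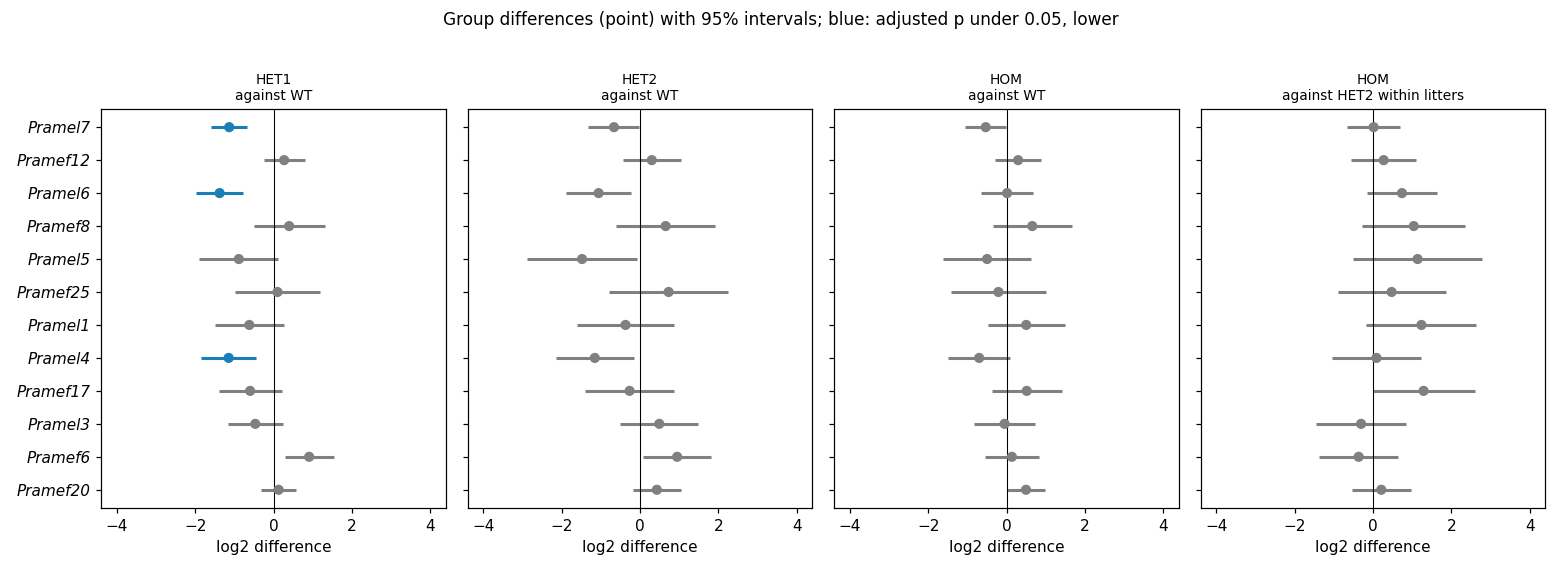
Log2 difference in floored log2 RPM (horizontal axis) of the 12 tested members for 4 group comparisons, each point with its 95% interval; blue marks adjusted p under 0.05. Only the HET1 panel holds coloured points, for *Pramel7* (-1.13), *Pramel6* (-1.38) and *Pramel4* (-1.14), and the intervals of HET2, with 5 embryos, are the widest of the panels with WT as reference.

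In HET2 embryos, which share the genotype of HET1, 0 of 12 members passed by limma and 0 by limma voom, with 5 of 12 at an unadjusted p under 0.05 (9.01% of all genes). Over all genes 0.015% were called lower and 0.0225% higher. *Pramel7* stood at 132, 175, 63.0, 112 and 267 RPM in HET2 a to e, where a to d are from mating 1 and e from mating 2. *Pramel6* stood at 41.7, 51.4, 25.8, 11.8 and 64.3 RPM in the same embryos. In both genes the single embryo of mating 2 was the highest and lay within the WT range. The differences from WT were -0.67 for *Pramel7* (95% interval -1.32 to -0.02) and -1.06 for *Pramel6* (-1.89 to -0.23), with adjusted p = 0.54 and 0.44 by limma. *Pramel4* had 1, 9, 0, 1 and 28 reads in HET2 a to e, again with its highest value in the embryo of mating 2. The comparisons of HET1, HET2 and HOM share the WT embryos, so their values are not independent of each other.

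In HOM embryos, which lack both the maternal supply and the paternal allele, 0 of 12 members passed by limma and 0 by limma voom on the recovered reads, and 2 of 12 had an unadjusted p under 0.05, a share near the 16.5% of all genes. Of all genes, 0.015% were called lower and 0.03% higher. *Pramel6* ran from 51.9 to 127 RPM (median 59.8) against 39.2 to 99.0 RPM in WT, a difference of 0.01 (95% interval -0.65 to 0.67). *Pramel7* ran from 84.0 to 242 RPM (median 151), with a difference of -0.53 (-1.05 to -0.02, limma adjusted p = 0.29). *Pramef12* ran from 44.5 to 145 RPM, with a difference of 0.29 (-0.29 to 0.88). *Pramef8* differed by 0.66 (-0.35 to 1.66) and *Pramel4* by -0.70 (-1.49 to 0.09). The HOM and WT ranges overlapped in each of these genes. When each embryo was centred on its median, *Pramel7* differed by -0.91 (adjusted p = 0.13) and the signs of *Pramel6* (-0.36, adjusted p = 0.66) and *Pramef12* (-0.08, adjusted p = 0.92) turned, so no direction is given for the latter pair.

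HOM and HET2 embryos can be compared within their shared litters. Here 0 of 12 members passed by limma, 0 had an unadjusted p under 0.05 (4.26% of all genes), and 0 passed by limma voom. Over all genes 0.015% were called lower and 0.0% higher. *Pramel7* differed by 0.01 (95% interval -0.66 to 0.68), *Pramel6* by 0.74 (-0.16 to 1.64) and *Pramef17* by 1.29 (-0.02 to 2.59). The point estimate was positive in 10 of 12 members, with a median of 0.37 beside 0.18 over all genes, but with each embryo centred on its median the signs of *Pramel7* (-0.35), *Pramel4* (-0.25) and *Pramef12* (-0.09) turned. Of the 5 HET2 embryos 4 were from 1 litter.

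Litters of the same cross and genotype could be compared as well. Between the HET1 litters, all of the same labelled genotype, 1 of 12 members was higher in mating 2 and 2 were lower. Of all genes 6.48% were called higher and 15.5% lower, and the median over all genes was -0.18. *Pramef25* had at most 7 reads in any embryo of mating 1 and 2 to 64 reads in mating 2. Its level ran from 0 to 16.6 RPM in mating 1 (median 2.45) and from 4.23 to 59.7 RPM in mating 2 (median 29.3). Of the 8 embryos of mating 2, only k, at 4.23 RPM, lay within the range of mating 1. The floored difference was 2.40 (SE 0.57, 5.26-fold, limma adjusted p = 0.0019).

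*Pramel7* and *Pramel6* went the other way. *Pramel7* ran from 114 to 200 RPM in mating 1 (n = 7) and from 47.3 to 133 RPM in mating 2 (n = 8), a difference of -1.13 (SE 0.28, limma adjusted p = 0.0025). Of the embryos of mating 2, only k reached the range of mating 1. *Pramel6* ran from 8.32 to 86.5 RPM and from 10.6 to 41.7 RPM, a difference of -1.12 (SE 0.37, limma adjusted p = 0.025) that did not pass by limma voom (-1.18, adjusted p = 0.075) or without embryos under 500000 reads (-1.18, adjusted p = 0.087). *Pramef8* had medians of 12.3 and 38.1 RPM and a difference of 1.32 that missed the threshold (adjusted p = 0.075), and *Pramef12* differed by 0.19 (95% interval -0.50 to 0.89). Scaling mattered for the lower pair. When each embryo was centred on its median, *Pramel7* (-0.69, adjusted p = 0.17) and *Pramel6* (-0.68, adjusted p = 0.24) no longer passed, *Pramef8* did (1.75, adjusted p = 0.021), and 1522 genes were called higher and 1190 lower in place of 864 and 2073.

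Between the litters of the cKO-x-HET cross, 2 of 12 members were lower in mating 2 and 0 higher, beside 3.43% of all genes lower and 3.01% higher. *Pramef25* ran from 10.8 to 46.2 RPM in all 7 embryos of mating 1 and from 0 to 14.4 RPM in the 8 of mating 2. The floored difference was -2.82 (SE 0.65, 7.05-fold lower, limma adjusted p = 0.0058). Only 4 of the 8 embryos of mating 2 had reads, so the floor limits this fold, and the difference was -4.06 by limma voom. *Pramef8* ran from 20.0 to 84.0 RPM and from 9.27 to 39.7 RPM, a difference of -2.07 (SE 0.62, limma adjusted p = 0.033). The *Pramef8* call was lost under 4 of 7 alternatives, limma voom among them (adjusted p = 0.071). Among HOM embryos alone the ranges of both genes did not overlap, which only describes embryos that had entered these calls. The share of all genes whose HOM ranges separate between the litters is not given here. *Pramef8* was at 65.2, 84.0 and 73.1 RPM in HOM a to c (mating 1) and at most 39.7 RPM in the 7 of mating 2. *Pramef25* was at 41.0, 36.9 and 30.7 RPM in the same 3 embryos and at most 14.4 RPM in the 7 others. *Pramel7* differed by 0.24 (95% interval -0.39 to 0.87) and *Pramel6* by 0.67 (-0.18 to 1.52) between these litters.

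The WT litters differed in 0 of 12 members by limma, with 1 of 12 at an unadjusted p under 0.05 (14.7% of all genes) and 0 called by limma voom, beside 1.28% of all genes higher and 0.51% lower. *Pramef25* stood at 0, 3.68, 18.3 and 3.54 RPM in WT k to n (mating 2) and between 0 and 66.3 RPM in mating 1. Its difference was -1.35 (SE 0.66, limma adjusted p = 0.32). *Pramef12* was at 60.0, 103, 148 and 134 RPM in k to n and between 18.3 and 127 RPM in mating 1, a difference of 0.79 (SE 0.40, limma adjusted p = 0.34).

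**Figure D3:**
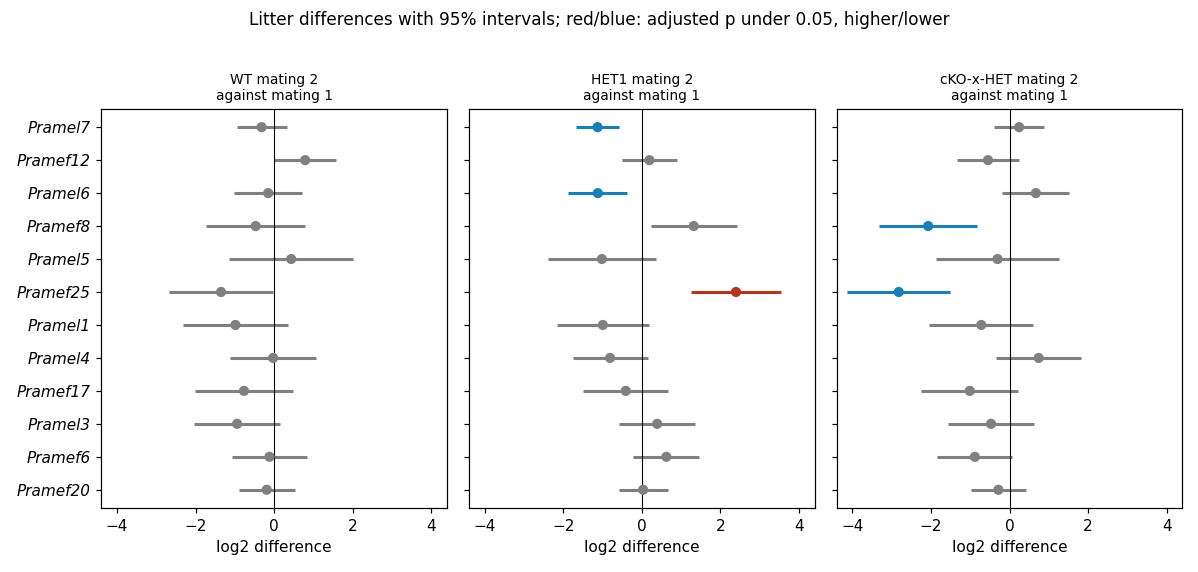
Log2 difference between mating 2 and mating 1 of the same cross (horizontal axis) for the 12 tested members, with 95% intervals; red and blue mark adjusted p under 0.05, higher and lower in mating 2. *Pramef25* stands at 2.40 in the HET1 panel, at -2.82 in the cKO-x-HET panel and at -1.35, not passing, in the WT panel. *Pramel7* passes in the HET1 panel (-1.13) and stands at -0.32 in the WT panel and 0.24 in the cKO-x-HET panel. Differences between panels were not tested.

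**Figure D4:**
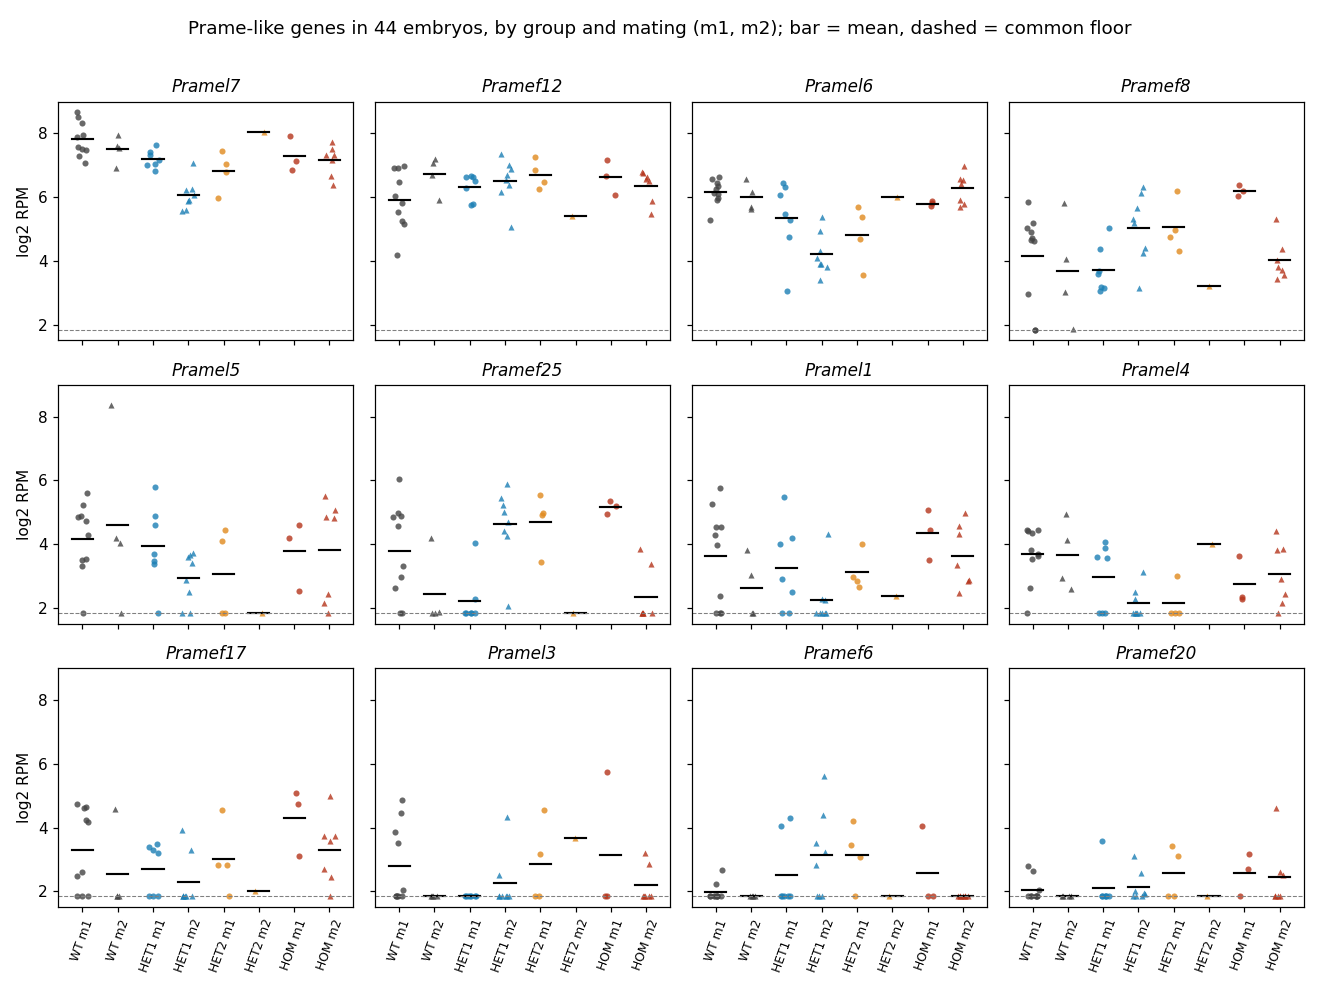
Floored log2 RPM (vertical axis) of the 12 tested members in each of the 44 embryos, by group and mating, with the mean of each as a bar and the floor as a dashed line; circles are mating 1 and triangles mating 2. The means of *Pramel7* and *Pramel6* are lowest in HET1 mating 2, although the lowest single *Pramel6* value (8.32 RPM) is in HET1 mating 1, and *Pramef8* and *Pramef25* are high in HET1 mating 2 and in both genotypes of cKO-x-HET mating 1.

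The level of 12 marker genes of the two-cell stage, among them *Zscan4d*, *Tcstv1* and *Usp17lc*, moved between the same litters. Their mean log2 RPM averaged 4.17 in HET1 mating 1 (3.50 to 5.31 over embryos) and 5.70 in mating 2 (4.82 to 6.41), with 8 of 12 called higher. In the cKO-x-HET cross it averaged 5.35 in mating 1 (4.52 to 6.34) and 3.82 in mating 2 (3.26 to 4.63), with 5 of 12 called lower. In WT it averaged 4.20 and 4.33. Of the granulosa and cumulus markers only *Amhr2* was read in most embryos (43 of 44), the other 9 averaging 1.86 to 2.01 on the floored log2 scale, so their sum follows mainly that gene. Summed granulosa and cumulus markers were at a median of 43.7 RPM in HET1 mating 1 and 14.7 RPM in mating 2, and at 22.4 and 68.8 RPM in the matings of the cKO-x-HET cross. Summed oocyte markers were at medians of 878 and 2455 RPM in HET1 matings 1 and 2, and of 2070 and 848 RPM in those of the cKO-x-HET cross. That sum follows mainly *Bmp15* and *Oosp1*, with mean log2 RPM of 8.98 and 8.13 beside at most 6.15 for the others. Between the HET1 litters 2 of 9 oocyte markers were higher (6.48% of all genes), *Oosp1* and *Ooep*, and the list had a median difference of 0.25. Between the cKO-x-HET litters 2 of 9 were lower (3.43% of all genes), *Bmp15* and *Oosp1*, with a median of -1.02. The part of these lists in the litter differences of *Pramef25*, *Pramef8*, *Pramel7* and *Pramel6* was not tested.

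Within litter and genotype, 45 pairs of the 9 well-detected members and the two-cell list were compared over 43 embryos (HET2 e, alone in its litter and genotype, was left out), with the values of each litter and genotype centred. Of these, 2 pairs passed in both measures, and both were positive. *Pramef8* rose with the two-cell list (Pearson r = 0.63, Spearman rho = 0.65, both permutation p = 2e-05 and adjusted p = 0.0009, 100000 permutations within litter and genotype), and r was 0.60 without the 2 embryos farthest from the median. Pooled over all 44 embryos r was 0.68. *Pramef25* rose with *Pramef17* (r = 0.58, rho = 0.59, permutation p = 0.00047 and 0.00036, adjusted p = 0.011 and 0.0081), with r = 0.57 without the 2 farthest.

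*Pramel7* and the two-cell list showed the need for the centring. Pooled over 44 embryos r was -0.57, but within litter and genotype it was -0.13 (rho = -0.10, permutation p = 0.44 and 0.53, adjusted p = 0.59 and 0.67). *Pramel7* and *Pramef25* had r = -0.47 and rho = -0.39 within litter and genotype (permutation p = 0.0049 and 0.019), which missed the threshold after adjustment over the 45 pairs (adjusted p = 0.073 and 0.18). *Pramel7* and *Pramel6*, neighbours that were both lower in HET1, had r = 0.61 pooled over embryos but 0.15 within litter and genotype (rho = 0.22, permutation p = 0.33 and 0.17, adjusted p = 0.48 and 0.41).

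**Figure D5:**
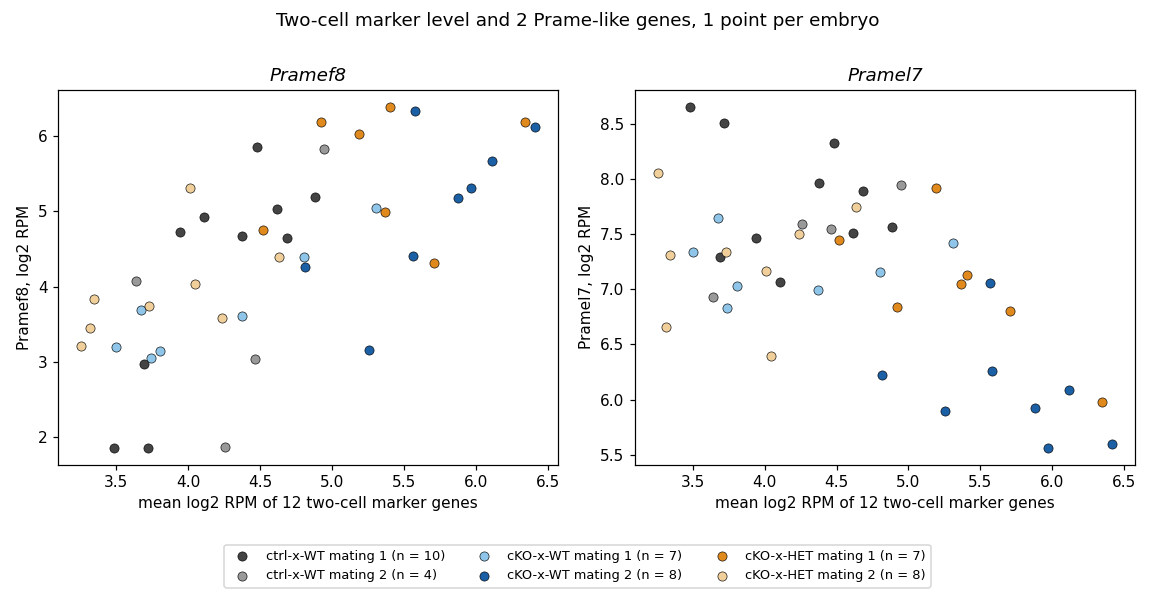
Mean log2 RPM of 12 two-cell marker genes (horizontal axis) against log2 RPM of *Pramef8* (left) and *Pramel7* (right), 1 point per embryo, coloured by cross and mating. *Pramef8* rises along the axis within litters (r = 0.63), whereas the slope of *Pramel7* over all points (r = -0.57) comes with cKO-x-WT mating 2 lying at the lower right and is -0.13 within litter and genotype.

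Genes of the same family that the table lists under other names were also compared between litters. RefSeq holds 49 genes with a Prame symbol, 13 of them members here, and 22 others could be matched to names such as *Gm12794* or *C87499* in the table, of which 17 were tested. This list was drawn up after the levels of the members had been seen. Between the HET1 litters 9 of 17 were higher in mating 2 (differences from 1.42 to 3.03) and 0 lower, beside 6.48% and 15.5% of all genes. Between the cKO-x-HET litters 8 of 17 were lower in mating 2 (from -2.77 to -1.26) and 0 higher, beside 3.43% and 3.01%. The lists shared 6 genes, which is 6 of the 9 and 6 of the 8, and all 6 had opposite signs, as *Pramef25* did. The share of all genes called in both comparisons with opposite signs is not given here, so the overlap is not read as a trait of the family. The two-cell markers *Zscan4d*, *Zfp352*, *Tcstv1*, *Tcstv3* and *Usp17lc* and the oocyte marker *Oosp1* also had calls of opposite sign. Between the WT litters 0 of 17 passed by limma, 4 passed by limma voom (5.08% of all genes) and 5 had an unadjusted p under 0.05 (14.7% of all genes; median difference 0.46). Against WT, 0 of 17 passed by limma and 0 by limma voom in HET1, HET2 or HOM, with 6, 1 and 0 at an unadjusted p under 0.05, beside 21.9%, 9.01% and 16.5% of all genes. Many of these genes are near copies of each other, so reads may be split among them.

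Genes with which Prame-like proteins are known to act were followed as 4 lists. Of the 15 tested genes of the CUL2 ubiquitin ligase and its other substrate receptors, 1 was higher and 2 lower in HET1 against WT, beside 3.67% and 2.83% of all genes. By limma voom 4 passed (7.47% of all genes), 10 of 15 had an unadjusted p under 0.05 (21.9% of all genes), and the median difference was -0.58. The higher was *Klhdc3*, a substrate receptor (1.73, SE 0.45, limma adjusted p = 0.014). The lower ones were *Eloc*, the elongin that links receptors to CUL2 (-0.84, SE 0.22, adjusted p = 0.014), and *Fem1c*, another receptor (-0.67, SE 0.18, adjusted p = 0.016). *Dnmt1* and *Uhrf1*, which maintain DNA methylation, and *Uhrf2*, a relative of *Uhrf1*, gave 0 of 3 calls by limma and 0 by limma voom, with 1 at an unadjusted p under 0.05 (21.9% of all genes). Of 7 genes tied to retinoic acid receptor repression 1 was lower, the Polycomb subunit *Suz12* (-0.49, adjusted p = 0.048). Of the 4 tested genes of LIF and STAT3 signalling 1 was higher, *Stat3* itself (1.17, SE 0.35, adjusted p = 0.032), and 0 passed by limma voom. In HET2 and in HOM against WT, and between HOM and HET2, 0 genes of these 4 lists passed by limma and 0 by limma voom. At an unadjusted p under 0.05, the CUL2 list had 6 of 15 in HET2, 5 of 15 in HOM and 1 of 15 between HOM and HET2, beside 9.01%, 16.5% and 4.26% of all genes. In HOM 2 of 7 retinoic acid receptor genes and 2 of 4 LIF and STAT3 genes were also under it, and the other lists had 0 in these comparisons.

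Between the HET1 litters, where 6.48% of all genes were higher and 15.5% lower, the same lists gave further calls. In the CUL2 list 1 of 15 was higher (*Klhdc2*) and 5 were lower (*Vhl*, *Zyg11b*, *Fem1a*, *Lrr1* and *Appbp2*), *Dnmt1* was lower (-1.16, adjusted p = 0.04), and *Rarg* (-2.02), *Ezh2* (0.75), *Eed* (0.80), *Jak1* (1.60) and *Socs3* (-2.09) passed. Between the cKO-x-HET litters *Lrr1* was higher (1.76), and *Klhdc2* (-0.93) and *Jak1* (-1.73) were lower. *Lrr1*, *Klhdc2* and *Jak1* thus had opposite signs in the litter comparisons of the crosses. Between the WT litters *Fem1b* was higher (1.09, adjusted p = 0.047).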

How the data were processed

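RNA-seq libraries of 44 single embryos were analysed. The authors trimmed reads (Trim Galore 0.6.5, cutadapt 2.3), mapped them to GRCm38 (HISAT2 2.1.0), kept a MAPQ of at least 20, and deposited log2 RPM from SeqMonk, counted without strand. A gene with no read stands at what 0.9 read would give, and 99.9997% of values were whole reads within 0.05 read, from which reads were recovered. Total reads were 247667 to 3163026 per embryo.

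Values were raised to a common floor, and 13338 genes above it in at least 5 embryos entered fits made with limma 3.58.1 under R 4.3.3 (trended eBayes, Benjamini-Hochberg, 0.05), with 4 group means, or with a litter term in each cross for litter and HOM against HET2 comparisons. The fits were also run on simulated counts that held no litter differences, so that check does not cover litters confounded with groups. Correlations used numpy 2.4.6, alignments Biopython 1.88, and promoter windows RefSeq.

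The members and lists were chosen with earlier results of these data known. All members were accounted for. Described in full were the 6 with the highest mean, up to 6 others with the smallest adjusted p between groups, and up to 4 others called between litters. No label ties equal mating numbers of different crosses to shared animals, so they were not used to pair samples. Alternatives covered floor, pseudocount, filter, centring, voom, litter terms and leaving out litters or embryos; 2 (WT replicate k, and embryos under 500000 reads) were added after the data were seen. Protein sequences were not used here.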

Additional observations from a re-analysis of the deposited data

Results flagged for a closer look

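In HET2 and HOM, 24 sets of values (a member in a group, where values differed) were searched for a single embryo far from the rest. Such a search flags about 1 in 20 sets by chance in ordinary data, a rate that does not hold for genes mostly at the floor. There were 3 such values, each the highest of the HOM group, in genes read in 3 (*Pramel3*), 7 (*Pramef20*) and 4 (*Pramef6*) of the 10 HOM embryos. In *Pramef6* 9 of the 10 sat at the floor, in *Pramel3* 7 and in *Pramef20* 4, so a single value above it stands apart by construction in the first. *Pramel3* in HOM a stood at 5.74 on the log2 RPM scale (130 reads), *Pramef20* in HOM h at 4.61 (20 reads) and *Pramef6* in HOM b at 4.05 (13 reads). Whether the effect of the paternal allele differed between the cKO-x-HET litters could not be judged, as mating 2 holds a single HET2 embryo.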

How the results depend on the processing

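The 3 members called lower in HET1 against WT became 0 with litter as a random effect, with litter means as the replicates, without the cKO-x-WT litter of mating 2 and without the ctrl-x-WT litter of mating 1; the cause was not tested. With litter means *Pramel7*, *Pramel6* and *Pramel4* differed by -1.03, -1.31 and -1.11, close to the values reported, so the calls and not the differences were lost there. The 2 members called between the cKO-x-HET litters became 1 on deposited values without the floor, with all genes that have a read, with limma voom and without the 8 embryos under 500000 total reads, because *Pramef8* no longer passed. Centring each embryo on its median changed the HET1 against WT split from 490 higher and 378 lower to 405 and 735, and that of HET2 against WT from 3 and 2 to 8 and 3. Leaving out each HET2 embryo kept 0 members called in HET2 against WT and in HOM against HET2, and leaving out each WT embryo of mating 2 kept 0 between the WT litters. With the mating number as a replicate block, although no label says that the numbers mark shared animals across crosses, 2 members were called in HET1 against WT and *Pramel4* was not (adjusted p = 0.056). *Pramef25* passed under all 7 alternatives in each of its litter comparisons, from 2.15 to 3.45 in HET1 and from -4.06 to -2.61 in cKO-x-HET, and *Pramel7* and *Pramel6* in HET1 against WT passed under 11 of 15 each. *Pramel4* passed under 5 of 15, being lost also without the floor (adjusted p = 0.051), with all genes that have a read (0.053), without ctrl-x-WT mating 2 (0.053), without WT replicate k (0.055) and without the shallow embryos (0.22). Between the HET1 litters *Pramel7* passed under 6 of 7 and *Pramel6* under 4 of 7. No call reversed its sign (0 of the alternatives run). Depth limits *Pramef6*, *Pramef20*, *Pramel3* and *Prame*, where a few reads in a shallow embryo set the value.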

Other observations

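*Pramel5*, one of the chromosome 4 cluster, had 349 reads in WT k (327 RPM), whereas the next highest of the 44 embryos had 138 reads. The same embryo is from the WT litter of mating 2, in which summed blastocyst markers ran from 8.3 to 64.7 RPM, against 0 to 0.3 RPM in the WT litter of mating 1. Over all WT embryos *Sox17* averaged 2.36 on the floored log2 scale and the other blastocyst markers 1.86 to 1.91. WT l, m and n of the same litter had *Pramel5* at 18.4, 1.37 and 16.5 RPM, and a link with the markers was not tested.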
